A study of Mus musculus with 16 samples.

Results

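Hippocampal messenger RNA of Bgn knockout mice drinking fructose was compared with that of wild-type mice on the same drink, in 4 libraries of each genotype, 8 of the 16 libraries in the series. All 16 libraries came from male C57BL/6 mice, either wild type (WT) or carrying the Bgn0/- genotype (BgnKO), a knockout whose deleted part the labels and design text do not give. From 3 months of age the mice of the 8 compared libraries drank water with 15% (w/v) fructose for 6 weeks. The other 8 libraries came from the same 2 genotypes on regular water, from the same age and for as long. They served as the reference for the drink. Of 22572 gene names in the deposited table, 12648 averaged 1 FPKM or more across all 16 libraries and were tested. FPKM counts fragments relative to transcript length and to the size of the library, and fold changes below are differences of log2(FPKM + 1), which understate the change of weakly expressed genes. Nothing in the labels ties a library to 1 animal, so p-values here cover only how far these libraries vary, and part of that spread may be technical.

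The product of Bgn is biglycan, which cells secrete into the extracellular matrix as one of the small leucine-rich proteoglycans. It binds collagen and ligands of the TGF-beta and BMP family, and the soluble protein is a known ligand of Toll-like receptors 2 and 4. In the brain its transcript is found mainly in the meninges, vessel-associated cells and glia. The gene lies on the X chromosome, so a male carries 1 copy.

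The 8 libraries were not uniform. The strand of a locus was inferred from the order of the deposited loci, which matched 99.4% of loci of known strand. Over 454 genes with loci inferred on both strands, loci on the reverse of the annotated strand took a median of 3.15 to 4.34% in the replicate 1 libraries of both genotypes and 18.1 to 21.9% in replicates 2 to 4, as a share of the gene's FPKM. The summed FPKM of 18 choroid plexus markers ran from 326 in WT fructose replicate 1 to 10311 in BgnKO fructose replicate 4, and that of 17 meningeal and fibroblast markers from 36.3 to 439 in the same pair. Results are therefore also given with a term for replicate 1, in replicates 2 to 4 alone, without that pair of libraries, and with marker levels as covariates. Markers of hippocampal neurons were present in all 8, with 12 dentate granule markers summing to 157 to 240.4 FPKM and 10 CA1 markers to 223 to 321 FPKM.

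On fructose the knockout hippocampus had higher transcripts of the endothelin ligand Edn1 and its receptor Ednrb. Transcripts of the BMP targets Id3 and Smad6 and of the potassium channel Kcnk2 were also higher. Lower were 5 of 30 immediate early genes, among them Egr1 and Nr4a3, and also Bex4 and Ccl25. Kcnk2 and Bex4 differed by a like amount on water, and the immediate early list had medians of -0.27 on fructose and -0.32 on water. Id3 and Egr1 were not called in the fit on the fructose libraries alone. At a limma adjusted p below 0.05, 475 of 12648 genes were called, or 3.76%. Of these, 206 were higher in BgnKO (1.63%) and 269 lower (2.13%). Most differences were small. The median log2 fold of the called genes was 0.48 for the higher and -0.39 for the lower ones, 17 were at least 2-fold higher and 12 at least 2-fold lower on the log2(FPKM + 1) scale. The median over all genes tested was -0.01, and 47.5% of genes lay above 0. The 4 BgnKO values did not overlap the 4 WT values in 454 of the 475 genes, against 1396 genes, or 11%, of all those tested.

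The number of calls depended on single libraries. It was 147 without WT fructose replicate 4, 166 without BgnKO fructose replicate 4, 178 without WT fructose replicate 2, 243 without BgnKO fructose replicate 3, 259 without WT fructose replicate 3, 137 without the pair of WT replicate 1 and BgnKO replicate 4, and 940 without BgnKO fructose replicate 1. With the replicate 1 libraries set apart, the number was larger, at 2190 with a term for replicate 1 (all 475 kept) and 1377 in replicates 2 to 4 (425 kept). The labels do not say what the replicate numbers stand for. Fitted on the 8 fructose libraries alone, 87 genes were called, 85 of them among the 475. Among genes named below that no single fructose library decided, those not called in that fit were Egr1 (adjusted p = 0.0520), Phka1 (0.0549), Cnksr2 (0.0584), Pnck and Wfs1 (0.0642 each), Id3 (0.0654), Nr4a1 and Iyd (0.0759 each), Klf10 (0.0885), Dvl2 (0.0969), Rpl39 (0.0587) and Filip1l (0.0654). Without the pair just named, Dvl2 (0.0653), Id3 (0.0660), Eif3j2 (0.0716), Iyd (0.0751), Klf10 (0.0757) and Luc7l3, given below, were not called. With choroid plexus, meninges and astrocyte levels as covariates 26 were called, 22 of them among the 475. The summed astrocyte markers did not overlap between the groups, at 2213 to 2346 FPKM in WT and 2488 to 3323 in BgnKO. Marker levels come from the same libraries, so on fructose this fit cannot fully tell the astrocyte level from genotype.

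**Figure D1:**
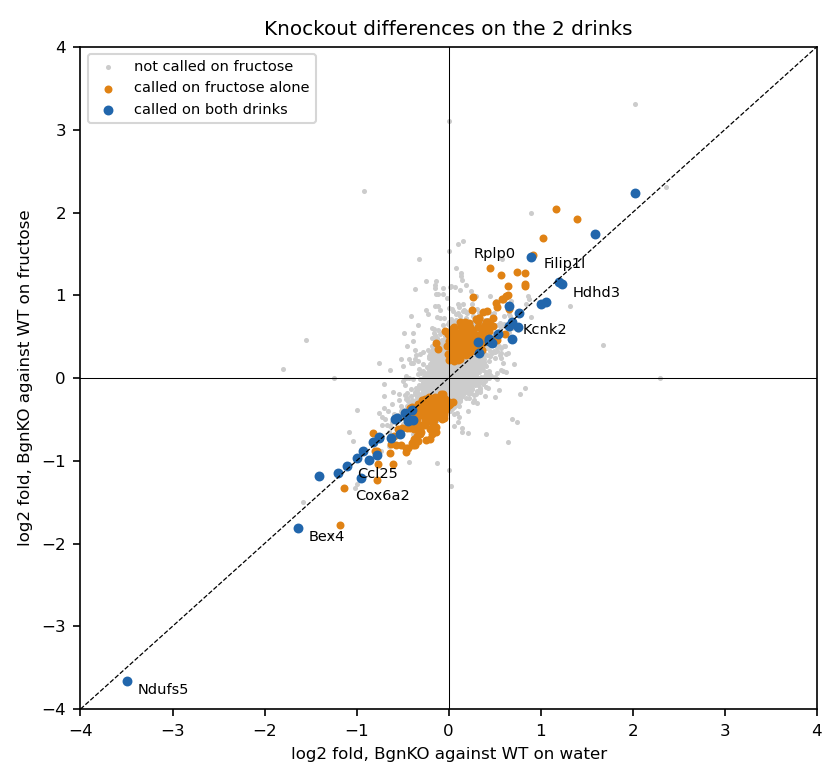
Log2 fold of each tested gene between BgnKO and WT on water (horizontal) and on fructose (vertical), on the log2(FPKM + 1) scale; the dashed line marks equal folds, and genes with a fold beyond 4 on either drink are not drawn. The 42 genes called on both drinks (blue) lie along the line, and most genes called on fructose alone (orange) lie on the same side of 0 on water.

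The water libraries share no sample with the fructose libraries, and gave 49 calls, 0.387% of the genes tested. Both drinks called 42 genes in the same direction, which is 8.84% of the fructose calls and 85.7% of the water calls. Of the 475 genes called on fructose, 464 (97.7%) had the same sign on water, against 69.8% of all genes tested. The fold on water was the smaller one in 442 of them, but the genes had been chosen for their p on fructose. The test of the difference itself, the genotype by drink interaction, called 1 gene, 0.00791% of those tested. At an unadjusted p under 0.05 it held for 368 genes, 2.91% of those tested. The gene called was Camk2a, listed without any FPKM in WT on fructose, which can be a failed estimate. That call therefore does not by itself show a difference between the drinks. For the other genes below no such difference was shown.

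**Figure D2:**
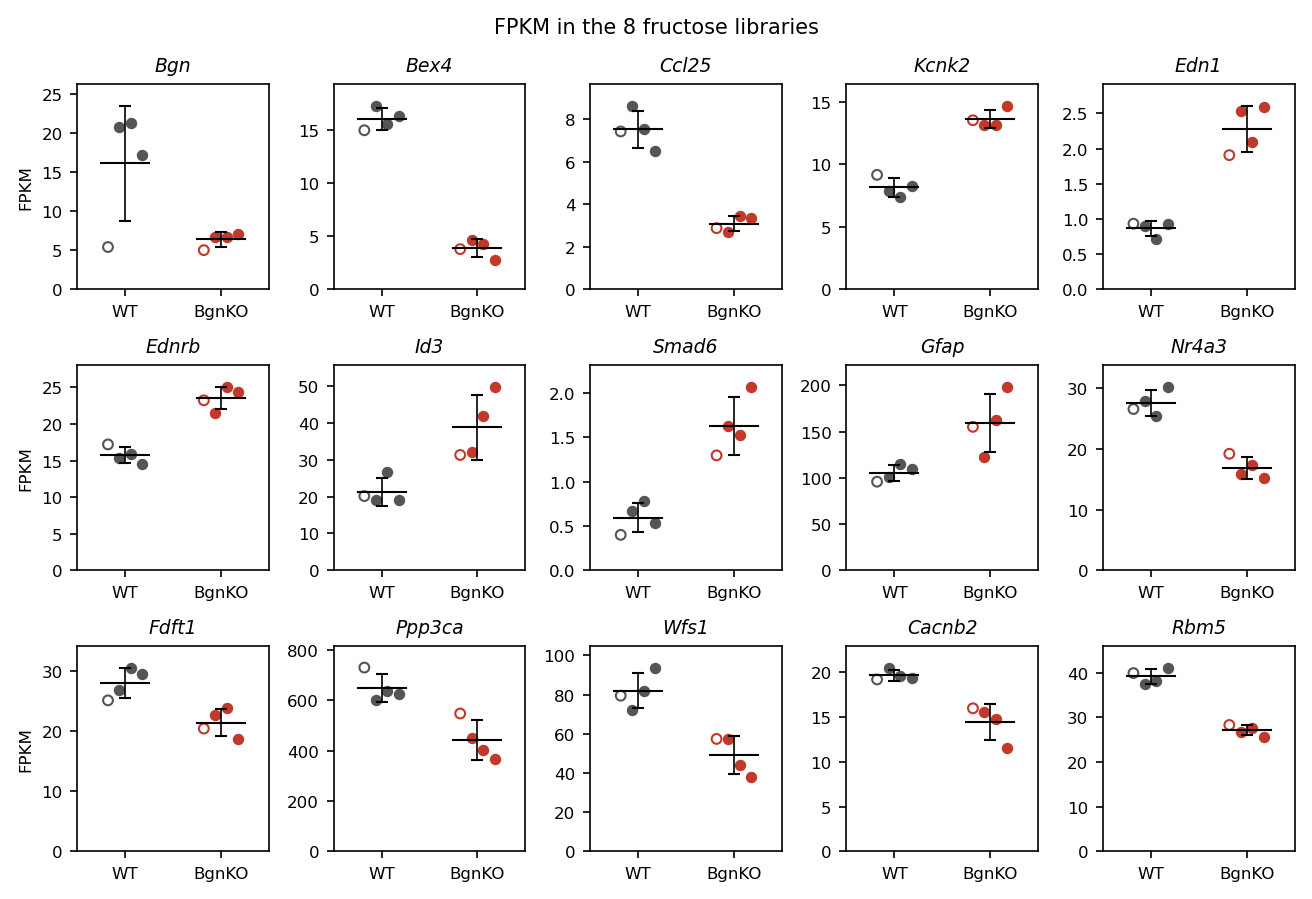
FPKM of 15 genes in the 8 fructose libraries, WT in grey and BgnKO in red, with the group mean and SD as lines; open circles are the replicate 1 libraries, and every axis starts at 0. The groups are apart in every panel except that of Bgn, where the open WT circle at 5.42 FPKM sits among the BgnKO values.

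Bgn itself (mm10, chromosome X, 73483602 to 73495933, plus strand) was 5.42, 20.7, 21.2 and 17.2 FPKM in the 4 WT libraries and 5.02, 6.69, 6.73 and 7.11 in the 4 BgnKO libraries, summed over loci on both strands. The library labelled WT fructose replicate 1 thus lay inside the BgnKO range. BgnKO held 39.6% of the WT mean (6.39 ± 0.932 against 16.1 ± 7.37 FPKM, SD, n = 4 each, 2-sided exact permutation p = 0.114). In replicates 2 to 4 the groups were apart, at 34.7% of WT (exact p = 0.1, the smallest that 3 against 3 allow). In the limma fit its adjusted p was 0.0869, and 0.00591 with a term for replicate 1. That WT library also had the lowest Dcn (decorin, a close relative of biglycan that CA1 neurons and fibroblasts express), at 5.98 FPKM against 41.0 to 46.4 in the other WT libraries, and Fmod (fibromodulin), at 1.44 against 10.2 to 13.5. For Bex4 and Ndufs5, which separate the genotypes on both drinks, it lay with WT. Reads from a part of Bgn that is not deleted cannot be told apart from expression.

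Of the genes with the smallest p-values, leaving aside those listed at 0 in a whole group, the first were called on both drinks. Bex4, a brain-expressed X-linked gene (chromosome X, 136138996 to 136140443), was 14.9, 17.3, 15.5 and 16.3 FPKM in WT and 3.78, 4.67, 4.28 and 2.79 in BgnKO. The groups were far apart, with a log2 fold of -1.82 (SE 0.12, adjusted p = 3.67e-07) on fructose and -1.64 on water. The chemokine Ccl25 was 7.43, 8.65, 7.54 and 6.50 in WT and 2.88, 2.70, 3.45 and 3.35 in BgnKO, a log2 fold of -1.06 (SE 0.09, adjusted p = 6.92e-06). Snapc1, a subunit of the complex that starts transcription of small nuclear RNA genes, fell by 0.92 on the log2 scale, D8Ertd82e by 0.99, the lysophospholipase-like Lyplal1 by 0.78 and the Mediator subunit Med8 by 0.72. These 6 genes and Ndufs5 kept their calls in every alternative, including the fit with the 3 marker levels.

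Ndufs5, a subunit of respiratory complex I, was 13.96, 11.6, 13.5 and 12.8 FPKM in WT and 0.216, 0, 0.189 and 0 in BgnKO. BC002163, on chromosome 16, moved the other way, from 121 ± 6.74 to 227 ± 7.56 FPKM (SD, n = 4 each). The annotated transcripts share sequence: of the distinct 31-base words of BC002163, 81.0% are also in Ndufs5. Reads of either gene could have gone to the other, so both levels are uncertain.

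Other genes of smallest p rose. Kcnk2, a background potassium channel opened by stretch and lipids, was 9.16, 7.90, 7.37 and 8.24 FPKM in WT and 13.5, 13.2, 13.2 and 14.7 in BgnKO, a log2 fold of 0.68 (SE 0.08, adjusted p = 0.000126) on fructose and 0.69 on water. The neighbours Hdhd3 and Alad on chromosome 4 rose by 1.13 and 0.92. Alad is an enzyme of heme synthesis. Asah1, the lysosomal acid ceramidase, was 17.3 to 18.7 FPKM in WT and 23.5 to 27.9 in BgnKO, a log2 fold of 0.44. Stxbp2, which serves vesicle fusion outside neurons, rose by 0.79, the fucosyltransferase Fut10 by 1.11, Mettl7a1 by 0.68, the magnesium transporter Magt1 by 0.67 and Fam227b by 1.46. Among the genes that fell were the splicing regulator Rbm5 (-0.52), the transcription factor Rreb1 (-1.23), the kinase Plk3 (-0.50) and Tceanc2 (-0.48). All of these kept their calls without any 1 of the 8 fructose libraries and in the fit on those 8 alone. With the 3 marker levels as covariates the adjusted p of these genes was 0.0549 (Rbm5) to 0.420 (Asah1), so that none of them stayed called. Their log2 folds in that fit were between 0.29 (Asah1) and 1.44 (Fam227b) for those that rose and between -0.35 (Tceanc2) and -1.26 (Rreb1) for those that fell, with Hdhd3 at 1.15, Alad at 0.98, Kcnk2 at 0.60 and Rbm5 at -0.52.

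Endothelin 1 is a peptide made by vascular cells and reactive astrocytes, and it acts through the receptors that Ednra and Ednrb encode, the second of which astrocytes carry. Edn1 (chromosome 13, 42301476 to 42307990) was 0.933, 0.897, 0.711 and 0.933 FPKM in WT and 1.91, 2.53, 2.09 and 2.59 in BgnKO. Its WT values lie under 1 FPKM, the filter on the mean of all libraries. Edn1 was still called with no filter and was not tested with a filter of 5 FPKM. The lowest BgnKO library was above every WT library, and the log2 fold was 0.81 (SE 0.10, adjusted p = 0.000511) on fructose and 0.42 (adjusted p = 0.131) on water. Ednrb (chromosome 14, 103814625 to 103844402) was 17.2, 15.3, 15.96 and 14.6 in WT and 23.2, 21.5, 25.04 and 24.4 in BgnKO, again without overlap, with a log2 fold of 0.55 (SE 0.08, adjusted p = 0.00203) on fructose and 0.18 on water. Ednra, singled out after its value was seen, was 1.32 to 1.73 FPKM in WT and 2.17 to 2.80 in BgnKO, a log2 fold of 0.40 (adjusted p = 0.0270). Edn1 and Ednrb stayed called without any 1 fructose library and in replicates 2 to 4 (adjusted p = 0.00236 and 0.00462). Ednra did not, at 0.0572 in replicates 2 to 4 and 0.0568 to 0.0955 without WT replicate 1, 2 or 4 or BgnKO replicate 3 or 4. With the 3 marker levels the log2 fold was 0.71 for Edn1 (adjusted p = 0.239), 0.44 for Ednrb (0.280) and 0.19 for Ednra (0.589).

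BMP ligands bind type I receptors such as the product of Bmpr1a and, through SMAD proteins, switch on the Id genes and the inhibitory Smad6, so the Id genes and Smad6 are read as targets of the pathway. Of 40 tested members of a TGF-beta and BMP list, 28 lay above 0, 5 rose and 0 fell. Over all genes tested 1.63% were called higher and 2.13% lower. The list's median log2 fold was 0.14 on fructose and 0.06 on water, beside -0.01 and -0.00 over all genes. Id3 was 20.1, 19.1, 26.7 and 19.0 FPKM in WT and 31.3, 32.1, 41.8 and 49.8 in BgnKO, so every BgnKO library was higher (log2 fold 0.83, SE 0.15, adjusted p = 0.00977). Smad6 was 0.400, 0.668, 0.786 and 0.529 in WT and 1.30, 1.62, 1.52 and 2.07 in BgnKO (log2 fold 0.72, SE 0.11, adjusted p = 0.00361). These WT values lie under 1 FPKM, the filter on the mean of all libraries. Smad6 was still called with no filter and was not tested with a filter of 5 FPKM. The summed FPKM of the 40 genes was 459.6 to 476 in WT and 519.6 to 564 in BgnKO, without overlap. Id1 rose by 0.68, Bmpr1a by 0.39 and Id2, singled out after its value was seen, by 0.34. On water these 5 genes had log2 folds of 0.12 to 0.29, none called. Tgfb1, the ligand, had a log2 fold of 0.32 (adjusted p = 0.274), and its receptor Tgfbr2 0.31 (0.328, but 0.0405 with a term for replicate 1 and 0.0370 in replicates 2 to 4). Id3 and Smad6 stayed called without any 1 fructose library, and Smad6 but not Id3 also in the fit on the 8 fructose libraries, where it was the 1 called member, and without WT replicate 1 and BgnKO replicate 4 together. Id1 was not called without WT replicate 1 or 2 or BgnKO replicate 3 or 4 (adjusted p = 0.0511 to 0.0709), and Bmpr1a not without WT replicate 2, 3 or 4 or BgnKO replicate 3 or 4 (0.0576 to 0.107). Id2 lost its call without any 1 fructose library but BgnKO replicate 2 (0.0595 to 0.140), and, of the water libraries, without WT 2 or 3 or BgnKO 1, 2 or 3 (0.0553 to 0.0644). The list held 2 calls without WT replicate 2 or BgnKO replicate 3 or 4, 3 without WT replicate 1, 3 or 4, and 9 higher with 1 lower when a term for replicate 1 was fitted. With the 3 marker levels 0 members were called, the list's median was 0.10, and the log2 fold was 0.51 for Smad6 and 0.19 for Id3. Endothelial cells and astrocytes also express Id genes. The summed FPKM of 13 endothelial markers was 128 to 153 in WT and 148 to 202 in BgnKO, which overlap, and the astrocyte sums are given next.

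Most markers of astrocytes, microglia and endothelium lay above 0 on fructose. So did 10 of 16 markers of oligodendrocytes and myelin and 7 of 8 of their precursors, but with medians of 0.02 and 0.06. Bulk RNA cannot tell more cells of a type from more RNA per cell. All 17 astrocyte markers lay above 0, and 4 rose and 0 fell, beside 1.63% called higher over all genes tested. These markers had a median log2 fold of 0.38 on fructose and 0.11 on water. Their summed FPKM was 2213, 2222, 2266 and 2346 in WT and 2683, 2488, 3021 and 3323 in BgnKO, without overlap. Fgfr3, a growth factor receptor of astrocytes, was 22.3, 21.5, 21.95 and 24.0 in WT and 35.5, 28.2, 36.2 and 40.8 in BgnKO (log2 fold 0.62, SE 0.12, adjusted p = 0.0159). Gfap, the intermediate filament that rises in reactive astrocytes, was 95.9 to 115 FPKM in WT and 122 to 199 in BgnKO (log2 fold 0.58, adjusted p = 0.0409). The water channel Aqp4 rose by 0.54 and the gap junction protein Gja1 by 0.42. These calls were not robust. Fgfr3 lost its call without WT replicate 2 (adjusted p = 0.0502) or BgnKO replicate 4 (0.0568). Gfap and Aqp4 lost theirs without any 1 of WT replicates 1 to 4 or BgnKO replicates 3 and 4 (0.0665 to 0.156), and Gja1 without WT replicate 2, 3 or 4 or BgnKO replicate 3 or 4 (0.0768 to 0.0988). Gfap was also not called without the water libraries WT 2 or 4 or BgnKO 2 (0.0519 to 0.0557), nor Aqp4 without WT 1, 2 or 3 or BgnKO 2 or 3 on water (0.0529 to 0.0640). The list held 0 calls without WT replicate 2 or BgnKO replicate 4, 1 without WT replicate 3 or 4 or BgnKO replicate 3, 7 without BgnKO replicate 2 and 9 with a term for replicate 1. With the 3 marker levels, of which the astrocyte level is 1, the list's median was -0.04 and Gfap had a log2 fold of -0.04.

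Of 16 microglia markers 15 lay above 0, with a median of 0.34 and 0 called, and their sum was 293 to 359.8 FPKM in WT and 372 to 491 in BgnKO. Csf1r, the growth factor receptor of microglia, was 17.0 to 19.1 FPKM in WT and 21.1 to 28.6 in BgnKO, groups that did not overlap but missed the threshold (adjusted p = 0.127, or 0.0414 with a term for replicate 1). Of 16 oligodendrocyte and myelin markers 10 lay above 0, with a median of 0.02 on fructose and -0.14 on water and 0 called, and their sums overlapped at 2231 to 2993 FPKM in WT and 2279 to 3482 in BgnKO. The median of 8 markers of oligodendrocyte precursors was 0.06, with 0 called. Of 13 endothelial markers 12 lay above 0, with a median of 0.30. Itm2a alone was called (22.4 to 30.4 in WT, 30.5 to 48.2 in BgnKO, adjusted p = 0.0322), and not without WT replicate 2, 3 or 4 or BgnKO replicate 3 or 4 (0.0706 to 0.115). Without BgnKO replicate 1 the endothelial list held 3 calls and the meningeal list 6, and without WT replicate 1 the microglia list held 1. All 18 choroid plexus markers lay above 0, with a median of 1.09 and 0 called, and varied widely within each group. Their median was 0.68 without WT replicate 1, and on water it was -0.06 with 8 of 18 above 0. Ttr, the transthyretin of the choroid plexus, was 212, 4367, 3934 and 2147 FPKM in WT and 3024, 6074, 2575 and 8924 in BgnKO, with broad overlap (adjusted p = 0.333). All 17 meningeal markers lay above 0, with a median of 0.47 on fructose and 0.44 on water and 0 called. That median was 0.11 without WT replicate 1, 0.19 without BgnKO replicate 4 and 0.82 without BgnKO replicate 1.

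**Figure D3:**
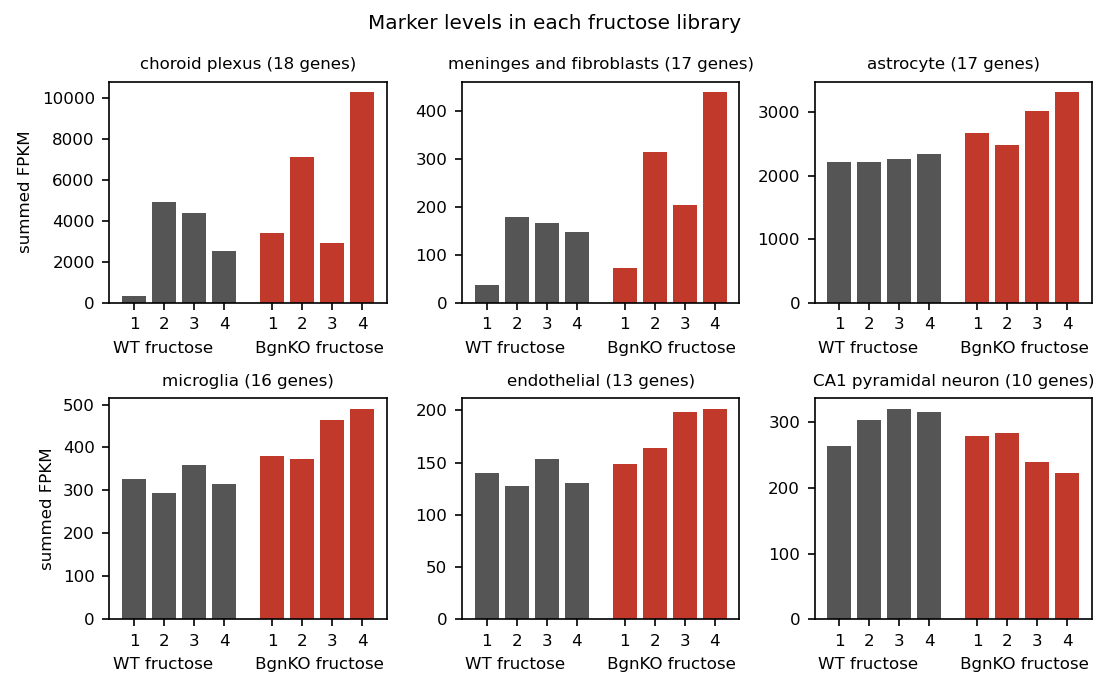
Summed FPKM of the tested markers of 6 cell types in each fructose library, numbered by replicate, with WT in grey and BgnKO in red. Choroid plexus and meningeal markers vary most between libraries of 1 genotype, while the 4 astrocyte sums of BgnKO, 2488 to 3323, lie above the 4 WT sums.

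Immediate early genes encode transcription factors and regulators that synaptic activity switches on within minutes through CREB and serum response factor. Of 30 tested, 23 lay below 0, 5 fell and 0 rose, beside 2.13% called lower over all genes tested. The median log2 fold of the list was -0.27 on fructose and -0.32 on water, where 29 lay below 0. Nr4a3, an orphan nuclear receptor, was 26.6, 27.9, 25.4 and 30.3 FPKM in WT and 19.2, 15.8, 17.3 and 15.2 in BgnKO (log2 fold -0.68, SE 0.10, adjusted p = 0.00277). Nr4a1, of the same family, was 24.5, 34.5, 22.8 and 51.4 in WT and 16.5, 14.5, 14.5 and 14.2 in BgnKO (log2 fold -1.04, SE 0.20, adjusted p = 0.0104). The WT libraries varied more than the BgnKO libraries, and the groups did not overlap. Egr1 was 63.2 to 134 FPKM in WT and 32.5 to 47.3 in BgnKO (log2 fold -1.20, SE 0.19, adjusted p = 0.00374). Klf10 fell by 0.61 and Egr2 by 0.91. Nr4a1, Nr4a3, Egr1 and Klf10 stayed called without any 1 fructose library, but Nr4a3 alone was called in the fit on the 8 fructose libraries (adjusted p = 0.0147). Egr2 did not, at 0.0603 to 0.0778 without WT replicate 2 or 4 or BgnKO replicate 3 or 4. In replicates 2 to 4 the list held 10 lower calls, and with the 3 marker levels 0, where its median was -0.24 and the log2 folds of Nr4a3 and Nr4a1 were -0.71 and -1.13. Bdnf, the activity-dependent neurotrophin, had a log2 fold of -0.34 (adjusted p = 0.206). It was called with a term for replicate 1 (0.0176) and in replicates 2 to 4 (0.0302), and had a log2 fold of -0.11 without WT replicate 1 and BgnKO replicate 4 (0.708).

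The 250 bases before a RefSeq start (GRCm38.p6, plus strand) are shown for 3 of the called genes, since they fell and promoters of immediate early genes are known to carry CREB sites. Capitals mark the core of the cAMP response element to which CREB binds, CGTCA or its reverse complement TGACG, and in Egr2 also the CArG box, the site of serum response factor. The windows are chr15:101266596-101266845 for Nr4a1, chr4:48045055-48045304 for Nr4a3 and chr10:67537619-67537868 for Egr2.
Nr4a1: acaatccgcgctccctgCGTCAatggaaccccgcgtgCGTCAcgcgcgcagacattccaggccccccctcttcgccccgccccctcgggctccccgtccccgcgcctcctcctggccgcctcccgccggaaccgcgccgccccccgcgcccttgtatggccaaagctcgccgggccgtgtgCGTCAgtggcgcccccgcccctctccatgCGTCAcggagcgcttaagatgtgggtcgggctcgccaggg
Nr4a3: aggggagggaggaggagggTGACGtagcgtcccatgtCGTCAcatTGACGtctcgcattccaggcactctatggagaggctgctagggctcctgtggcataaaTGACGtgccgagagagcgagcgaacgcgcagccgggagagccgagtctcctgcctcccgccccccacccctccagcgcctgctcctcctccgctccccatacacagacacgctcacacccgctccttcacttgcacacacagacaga
Egr2: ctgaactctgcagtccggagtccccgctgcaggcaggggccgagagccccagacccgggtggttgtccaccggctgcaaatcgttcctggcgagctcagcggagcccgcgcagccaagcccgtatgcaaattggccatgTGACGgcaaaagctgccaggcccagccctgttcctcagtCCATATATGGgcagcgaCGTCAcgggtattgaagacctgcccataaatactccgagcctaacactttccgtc
The Nr4a1 and Nr4a3 windows hold 4 such cores each, and the Egr2 window shown holds 2 and 1 CArG box. RefSeq gives Egr2 other starts. The window chr10:67535249-67535498 holds neither motif, and chr10:67537316-67537565 holds 1 CArG box and no core. A window of the same length with at least 3 of these cores is found in 0.688% of the 32851 promoters of the table. The Egr2 window, with 2, is below that number. Searched on both strands, the core is in a promoter of 15 of the 22 immediate early genes in the table (68.2%) and of 19.8% of all its genes. The CArG box is in 1 of the 22 and in 1.62% of all genes. Such a match is a description of the letters and not a measured site. The genes were shown because promoters of this class are known to carry these sites, so the shares are no test. A part of CREB in the fall was not tested.

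**Figure D4:**
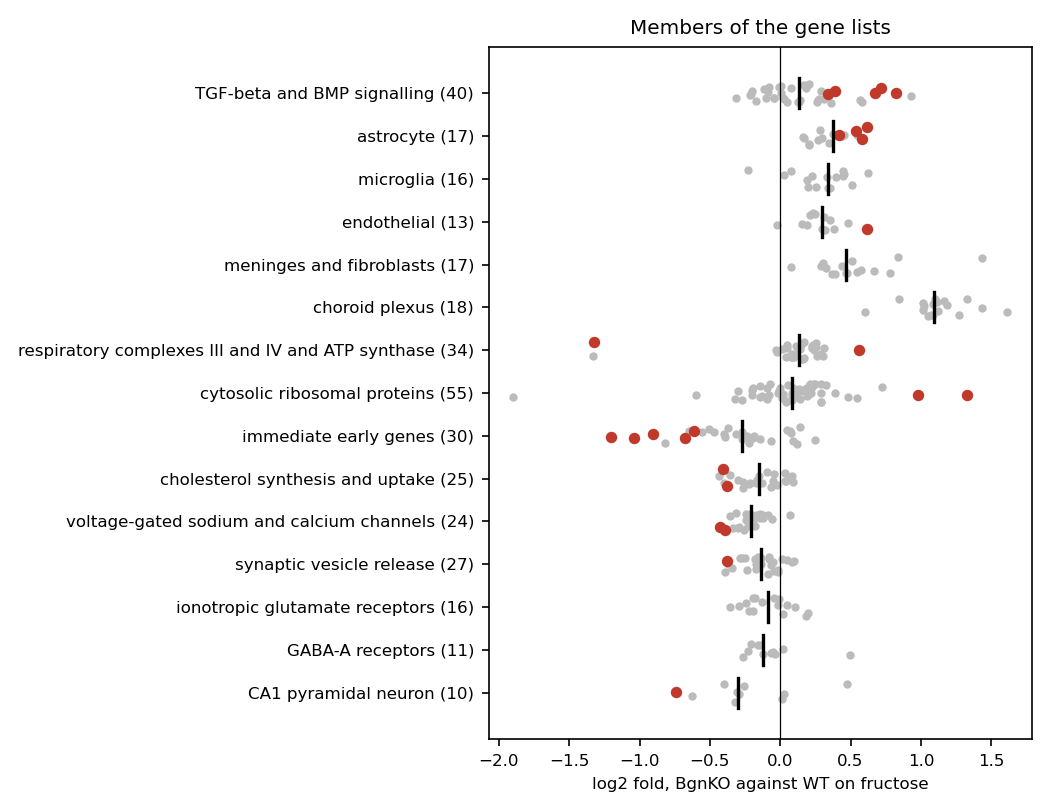
Log2 fold between BgnKO and WT on fructose for each tested member of 15 gene lists, with the number tested in brackets; red points were called by limma and black bars are list medians. Glial, vascular and choroid plexus medians lie to the right of 0, and those of the immediate early, channel and vesicle lists to the left.

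Voltage-gated sodium and calcium channels carry the action potential and the calcium entry that triggers transmitter release. Of 24 tested subunits 23 lay below 0, 2 fell and 0 rose, beside 2.13% called lower over all genes tested. The median was -0.21 on fructose and -0.06 on water. Cacnb2, an auxiliary calcium channel subunit, was 19.1, 20.5, 19.6 and 19.3 FPKM in WT and 15.9, 15.6, 14.7 and 11.5 in BgnKO (log2 fold -0.43, SE 0.11, adjusted p = 0.0368). Cacna1e, the pore of R-type channels, was 37.8 to 45.0 in WT and 26.2 to 34.7 in BgnKO (log2 fold -0.39, adjusted p = 0.0352). Neither group pair overlapped, yet both calls ended without any 1 of WT replicates 1 to 4 or BgnKO replicates 3 and 4 (0.0542 to 0.118). Cacnb2 was also not called without the water libraries WT 3 or BgnKO 2 (0.0505 and 0.0508). A term for replicate 1 gave 8 lower calls in this list. With the 3 marker levels it held 0 calls and its median was -0.12. The summed astrocyte markers were higher and the summed CA1 markers mostly lower in the same BgnKO libraries (223 to 283 against 264 to 321 FPKM), and their part in the lower neuronal genes was not tested further.

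Of 27 genes of synaptic vesicle release 23 lay below 0, on water as on fructose, with a median of -0.14. The call counts here stand beside 3.76% called over all genes tested. Unc13a, which primes vesicles for fusion, was 45.4 to 49.2 FPKM in WT and 31.9 to 38.6 in BgnKO, and was the 1 member called (log2 fold -0.38, adjusted p = 0.0188). Its call ended without WT replicate 2 or 4 or BgnKO replicate 4 (0.0518 to 0.0672). No ionotropic glutamate receptor and no GABA-A receptor subunit was called, with medians of -0.09 over 16 and -0.12 over 11 genes. A term for replicate 1 gave 2 lower calls in the glutamate list, and 1 higher and 1 lower in the GABA-A list, and replicates 2 to 4 gave 2 lower, and 1 higher and 2 lower. Without BgnKO replicate 4 the GABA-A median was 0.01 and the glutamate median -0.03. The GABA-A list held 2 calls without BgnKO replicate 2 and 1 without WT or BgnKO replicate 1, and the glutamate list 1 without BgnKO replicate 1. Of 35 potassium channels Kcnk2 rose, as above, and its relative Kcnk9 fell (3.52 to 4.30 FPKM against 4.93 to 6.07, adjusted p = 0.0353). Kcnk9 was not called without WT replicate 1, 2 or 4 or BgnKO replicate 3 or 4 (0.0612 to 0.118). Without BgnKO replicate 1 the potassium channel list held 9 calls.

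Abundant genes that fell included those for neuronal signalling proteins. Ppp3ca, the catalytic subunit of calcineurin, a calcium-dependent phosphatase, was 729, 602, 637 and 623 FPKM in WT and 547, 450.3, 402 and 367 in BgnKO. Every BgnKO library was lower (log2 fold -0.56, SE 0.12, adjusted p = 0.0170). Prkcb, a protein kinase C of neurons, fell by 0.27, Gnao1, a G protein subunit, by 0.28 and Wasf1, an actin regulator of spines, by 0.47. Leaving out single fructose libraries ended each of these calls. This was so for Ppp3ca without BgnKO replicate 3 (0.0501) or 4 (0.0550), for Wasf1 without WT replicate 4 (0.0544), for Prkcb without WT replicate 2 or 4 or BgnKO replicate 3 or 4 (0.0523 to 0.0710) and for Gnao1 without WT replicate 2, 3 or 4 or BgnKO replicate 4 (0.0677 to 0.0866).

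Among markers of the hippocampal fields, Wfs1, which marks CA1 pyramidal cells, was 79.5, 72.4, 81.9 and 93.8 FPKM in WT and 57.4, 57.6, 44.0 and 37.8 in BgnKO, without overlap (log2 fold -0.74, SE 0.12, adjusted p = 0.00346). It stayed called without any 1 fructose library. It was the 1 called member of 10 CA1 markers, beside 3.76% called over all genes tested. Of these markers 7 lay below 0, with a median of -0.30 on fructose and -0.08 on water. Without BgnKO replicate 1 or 2, 2 of them were called. In the fit on the 8 fructose libraries Wfs1 was not called. Iyd, of the CA2 and CA3 list, was 2.19 to 3.36 in WT and 0.463 to 1.45 in BgnKO (adjusted p = 0.0173), while the list's median was -0.01 over 12 genes. None of 12 dentate granule markers was called, with a median of -0.08.

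Cholesterol is made locally in the brain, and the sterol-regulated genes of this route usually move as a set. Of 25 tested, 19 lay below 0, 2 fell and 0 rose, beside 2.13% called lower over all genes tested. The median was -0.15 on fructose and -0.20 on water, where all 25 lay below 0. Fdft1, the squalene synthase, was 25.2, 26.9, 30.6 and 29.6 FPKM in WT and 20.5, 22.7, 23.8 and 18.7 in BgnKO (log2 fold -0.38, SE 0.08, adjusted p = 0.0195). The groups were apart. Fdft1 was not called without WT replicate 3 or 4 or BgnKO replicate 4 (0.0604 to 0.0702). The list held 0 calls without WT replicate 4, 1 without WT replicate 3 or BgnKO replicate 4 and 5 without BgnKO replicate 1. In replicates 2 to 4 it held 6 lower calls and with a term for replicate 1 it held 10.

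Calls among genes of fructose handling and energy metabolism stand beside the 3.76% called over all genes tested. No list was tested as a set. None of 13 genes of hexose and polyol transport was called. The fructose transporter Slc2a5 was 1.89 to 2.24 FPKM in WT and 1.30 to 2.23 in BgnKO (log2 fold -0.23, adjusted p = 0.339). With the 3 marker levels 2 members of this list were called lower, Slc2a5 (-0.88, adjusted p = 0.0372) and the urate and hexose transporter Slc2a9 (-0.71, 0.0372). Of 34 subunits of complexes III and IV and the ATP synthase 30 lay above 0, with a median of 0.13 on fructose and 0.01 on water. Atp5e rose (71.8 to 109.8 in WT, 111 to 169 in BgnKO, adjusted p = 0.0480) and Cox6a2, a muscle-type subunit of complex IV that interneurons also express, fell (5.18 to 11.4 in WT, 1.78 to 5.28 in BgnKO, which overlap, adjusted p = 0.0188). Atp5e was not called without WT replicate 2, 3 or 4 or BgnKO replicate 3 or 4 (0.0647 to 0.159), nor without 6 of the 8 water libraries (all but WT replicate 1 and BgnKO replicate 4, 0.0521 to 0.0646), nor Cox6a2 without WT replicate 2 or 4 or BgnKO replicate 4 (0.0569 to 0.0702). Of 55 cytosolic ribosomal protein genes Rpl39 (6.08 to 10.7 in WT, 13.0 to 21.5 in BgnKO, adjusted p = 0.0102) and Rplp0 (8.38 to 30.9, 43.0 to 63.1, adjusted p = 0.0258) rose, with a median of 0.09. Rplp0 was not called without BgnKO replicate 3 (0.0673) or 4 (0.0858), and both have processed copies that can share reads. The list held 4 calls without BgnKO replicate 1. Of 31 genes of insulin and IGF signalling Irs2, an adaptor of both receptors, was called lower (25.6 to 30.98 in WT, 20.3 to 24.2 in BgnKO, adjusted p = 0.0408), and not without WT replicate 2 or 4 or BgnKO replicate 2, 3 or 4 (0.0576 to 0.133) or, on water, WT 2 or 3 or BgnKO 3 (0.0509 to 0.0560). That list held 2 calls without BgnKO replicate 1. Igf1 had a log2 fold of 0.06, Igf1r 0.17 and Txnip, a glucose-induced gene, 0.14, none of them called.

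No relative of biglycan was called on fructose, and 1 gene of its receptor pathway was. Over all genes tested 3.76% were called, so such counts do not mark out lists of 11 and 18 genes. Of 11 tested small leucine-rich proteoglycans 10 lay above 0, the exception being Bgn, with a median of 0.31 on fructose and 0.20 on water and 0 called. That median was 0.14 without WT replicate 1, 0.18 without BgnKO replicate 4 and 0.64 without BgnKO replicate 1, and the list held 4 calls without BgnKO replicate 1 and 1 without WT replicate 1. A term for replicate 1 gave 2 higher calls, Ogn (adjusted p = 0.0320) and Ecm2 (0.0464), and replicates 2 to 4 gave 3, Ogn (0.0358), Ecm2 (0.0349) and Aspn (0.0409), beside Bgn as the lower one in both. Tlr2 and Tlr4 lay under the filter, at 0.252 to 0.408 and 0.181 to 0.354 FPKM in WT and 0.474 to 0.883 and 0.328 to 0.628 in BgnKO, and were not tested. Of 18 tested genes of Toll-like signalling 1 was called, Tnfaip3, an inhibitor of NF-kB, at 1.59 to 1.98 FPKM in WT and 1.17 to 1.34 in BgnKO (log2 fold -0.32, adjusted p = 0.0258). Its call ended without WT replicate 1, 3 or 4 or BgnKO replicate 3 or 4 (0.0580 to 0.0826). With a term for replicate 1 the adaptor Ticam1 was called higher (log2 fold 0.28, adjusted p = 0.0223). Of 33 Wnt genes 24 lay above 0, and the 1 call was the signal transducer Dvl2, lower at 4.43 to 4.65 in BgnKO against 5.25 to 6.78 in WT (adjusted p = 0.0123). The list held 2 calls without WT replicate 1 or BgnKO replicate 1 or 2.

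Called genes were not spread evenly over the genome. Chromosome 8 held 41 calls among 650 genes tested (6.31%), against 3.76% overall. In its first 60 Mb, a limit chosen after the positions were seen, 26 of 183 genes were called (14.2%), 15 higher and 11 lower, and in the rest 15 of 467 (3.21%). All 26 had the same sign on water, and all 7 genes of this stretch called on water were among them. The 15 calls in the rest of the chromosome also kept their sign on water, as did 97.7% of all calls. Other chromosomes held dense 5 Mb windows too, such as 4 of 14 genes on chromosome 10 and 5 of 27 on chromosome 12. In the first 5 Mb of chromosome 8, 6 of 18 were called, which are Stxbp2, Trappc5, Rprl3, Evi5l, Snapc2 and Ccl25. Trappc5 was not called without WT replicate 1, 2 or 4 or BgnKO replicate 3 (0.0517 to 0.0811), Evi5l without any 1 but WT replicate 1 (0.0528 to 0.142) and Snapc2 without any 1 but WT replicate 3 or BgnKO replicate 2 (0.0501 to 0.114). Of these, Evi5l was also not called without WT 2, 3 or 4 or BgnKO 2 or 3 on water (0.0526 to 0.0607), nor Snapc2 without WT 3 or BgnKO 3 on water (0.0505 to 0.0517). Within 5 Mb of Bgn 3 of 58 genes were called (5.17%), Pnck (39.4 to 46.7 FPKM in WT, 52.7 to 65.4 in BgnKO), 1110012L19Rik (6.85 to 8.94, 9.31 to 10.5) and Pnma3 (7.72 to 8.22, 5.004 to 7.12). Pnck stayed called without any 1 fructose library. 1110012L19Rik was not called without WT replicate 1 or 4 or BgnKO replicate 3 or 4 (0.0501 to 0.0749), nor Pnma3 without any 1 fructose library but BgnKO replicate 2 (0.0549 to 0.146) or any 1 water library but BgnKO replicate 1 (0.0529 to 0.0659). Over the X chromosome 18 of 413 genes were called (4.36%), 11 higher and 7 lower. Beside Bex4 the 1 with the lowest fold was Cnksr2, a scaffold of synapses, at 102 to 115 FPKM in WT and 54.3 to 80.5 in BgnKO (log2 fold -0.65, adjusted p = 0.00535). Among those that rose were Magt1, as above, Phka1, a subunit of phosphorylase kinase (0.55, adjusted p = 0.00974), and Gemin8, of the SMN complex (0.61, adjusted p = 0.0163, 0.0604 without WT replicate 4). The labels give 1 knockout line, so sequence linked to that line and loss of Bgn cannot be told apart.

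**Figure D5:**
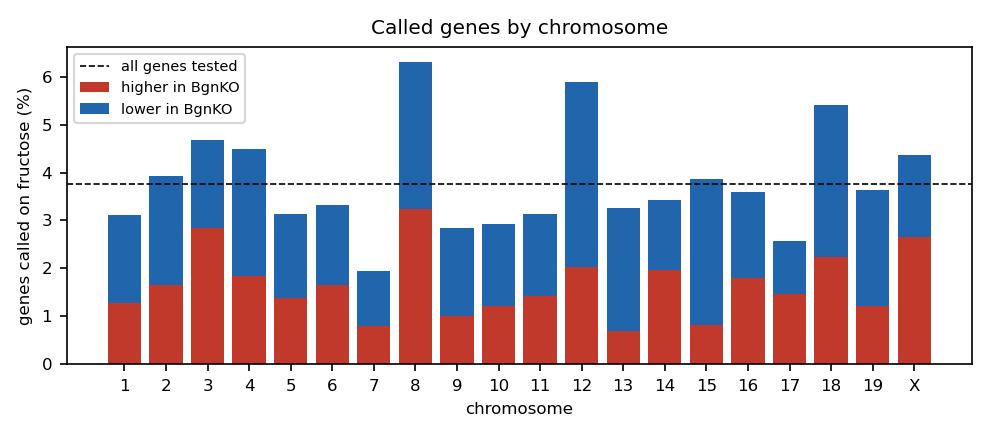
Share of tested genes on each chromosome that limma called on fructose, split into higher (red) and lower (blue) in BgnKO, with the share over all genes as a dashed line. Chromosome 8 has the highest share, 6.31%.

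Some genes were listed at 0 in a whole group, where an exact 0 can be a failed estimate. Camk2a, a kinase abundant in every excitatory neuron of the hippocampus, was listed at 0 in all 4 WT libraries on fructose and at 1256, 1013, 1671 and 1505 FPKM in BgnKO. On water its mean was 1372 in WT and 1158 in BgnKO. It is the 1 gene called for the interaction, and no fold is given against the listed 0. Rn45s, the ribosomal RNA precursor, was listed at 0 in the 4 BgnKO libraries and at 1085, 468, 506 and 373 in WT. Eif3j2 was listed at 0 in the 4 BgnKO libraries and at 1.23 to 3.93 in WT. Rprl3 was listed at 0 in 3 of the 4 WT libraries and at 1.83 to 7.07 in BgnKO. Filip1l, the most abundant of the genes named as called, was 964 to 1793 FPKM in WT and 2237 to 5981 in BgnKO (log2 fold 1.48, SE 0.26, adjusted p = 0.00692), and was highest in the replicate 1 library of each genotype.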

How the data were processed

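Poly(A)-selected hippocampal RNA was sequenced in 16 libraries, 4 per group. Per the submitters' processing notes, the reads were handled with TopHat, Bowtie, Cufflinks and Cuffdiff on mm10. The sources used here give no versions, strand setting or annotation, so overlapping and antisense genes cannot be separated with certainty. Each library's FPKM column was analysed as the authors deposited it. FPKM holds no depth, and whole-read steps fitted 6.37 to 54.5% of low values at best, so read numbers and counting intervals are not given. Loci of 1 name were summed, and 523 tested names join several genes. The 4 deposited group columns were not used.

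Genes averaging 1 FPKM or more across 16 libraries were fitted on log2(FPKM + 1) with limma 3.58.1 in R 4.3.3 (4 group means, contrasts, eBayes with trend). The Benjamini-Hochberg adjustment ran over all 12648 genes, with a threshold of 0.05. All 16 libraries share 1 estimate of the spread. Bgn was also tested by an exact permutation of its FPKM. The script was tested on simulated data. Positions came from GENCODE vM21 and RefSeq GRCm38.p6 by name and were found for 95.4% of tested genes.

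The members, gene lists (27 pathway and 17 marker lists) and alternatives were chosen with earlier results of these data known. Named were Bgn, 14 genes chosen in advance of this fit, the 12 called genes of smallest p and the 6 of highest FPKM in each direction, in each described list the 4 members of smallest p at most, called X-linked genes, genes listed at 0 in a group, and others that the text marks or that complete a count. Names of the form Gm plus digits, names that end in Rik and joined names stayed out of the rankings. Some genes that these rules chose are not reported here. Alternatives were another pseudocount (0.1), no filter or a filter of 5 FPKM, median-ratio and quantile scaling, no trend, the 8 fructose libraries alone, a replicate block, a term for replicate 1, replicates 2 to 4, leaving out libraries, and marker levels as covariates.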

Additional observations from a re-analysis of the deposited data

Results flagged for a closer look

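In each group of 4 fructose libraries a library was marked when its gap to the nearest other library, as a share of the range, passed Dixon's 95% critical value for 4 samples. Of 321 groups over 162 genes, 24 had such a library, where chance gives about 1 in 20 groups. In WT replicate 1 these were Bdnf at 14.82 FPKM, Dcn at 5.976, Kcnj2 at 2.522, Kcnj6 at 33.77, Malat1 at 146.2 and Tgfbr2 at 4.238. In WT replicate 2 it was Rprl3 at 0.3363, in WT replicate 3 C1qa at 53.51, Edn1 at 0.7113, Id3 at 26.66, Kdr at 3.49 and Trappc5 at 17.2, and in WT replicate 4 Car2 at 109.3 and Ripk1 at 1.613. In BgnKO replicate 1 it was Nr4a1 at 16.53, and in BgnKO replicate 3 Alad at 14.51, Fam227b at 3.857 and Slc16a1 at 22.27. In BgnKO replicate 4 these were Amot at 7.722, Asah1 at 27.86, Col19a1 at 0.6005, Grin1 at 114.8, Kcnk9 at 3.517 and Tnfaip3 at 1.168.

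The genotype by drink interaction was called for Camk2a (limma adjusted p = 2.98e-12), and rests on the listed 0 in the WT fructose columns, so no fold is given. Gria1, a subunit of AMPA-type glutamate receptors, was lower in every BgnKO library on fructose (log2 fold -0.1931) and higher on average on water (0.15). Its interaction had an unadjusted p of 0.00776 and a limma adjusted p of 0.999, so a difference between the drinks was not shown.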

How the results depend on the processing

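Of 88 called genes with values under each alternative, 42 stayed called without any 1 fructose library. Over their 1828 values, 1377 kept direction and call, 449 kept direction only and 2 changed sign, both with the 3 marker levels as covariates: Gfap, at -0.03588, and Pnma3, at 0.02794. Of 475 genes called on fructose, the count became 313 with a filter of 5 FPKM, 87 with the 8 fructose libraries alone, 2190 with a term for replicate 1, 1377 in replicates 2 to 4, 137 without WT replicate 1 and BgnKO replicate 4, 260 with the choroid plexus level as a covariate (203 of the 475) and 26 with 3 marker levels. Leaving out each fructose library gave 147 to 940 calls. Fewer genes or samples enter some of these fits; the cause was otherwise not tested. Of 49 calls on water, 26 stayed with the 5 FPKM filter, while a term for replicate 1 gave 126, replicates 2 to 4 gave 79 and 3 marker levels gave 77; leaving out each library gave 30 to 57. The interaction had 1 call, and 2 in replicates 2 to 4. Bgn in BgnKO was 32.4 to 44.3% of WT without each library, and 51.1% at the locus inferred to lie on the annotated strand.

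With the replicate number as a replicate block, 2483 genes were called on fructose, including all 475, 125 on water and 1 for the interaction. Deviations of same-numbered libraries correlated by 0.09 to 0.75, and 2 of 4 WT and 3 of 4 BgnKO libraries correlated best with their own number, so the numbers were not taken as pairs. For Bgn the paired sign-flip test gave an exact p of 0.125, at 39.6% of WT. FPKM holds no depth, so precision rests on the spread of 4 libraries.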

Other observations

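The following 5 genes of nuclear RNA and splicing were chosen after their values were seen, so they stand for no group. Miat, a long noncoding RNA of neurons, was 25.2 to 35.2 FPKM in WT and 14.5 to 18.3 in BgnKO (log2 fold -0.76, SE 0.16, limma adjusted p = 0.0181, 0.0578 without WT replicate 4). Luc7l3, a factor of the U1 splicing particle, was 42.2 to 47.8 in WT and 27.8 to 34.2 in BgnKO (log2 fold -0.49, SE 0.10, adjusted p = 0.0123) and stayed called without any 1 fructose library, but not without WT replicate 1 and BgnKO replicate 4 together (0.0660). Clk1, a kinase of splicing factors, was 22.5 to 29.6 in WT and 16.2 to 17.8 in BgnKO (adjusted p = 0.0281), but not called without WT replicate 1, 2 or 4 or BgnKO replicate 3 or 4 (0.0651 to 0.0728). Snhg11 was 95.1 to 142 in WT and 57.8 to 72.3 in BgnKO (adjusted p = 0.0331), and not called without WT replicate 1, 2 or 4 or BgnKO replicate 2, 3 or 4 (0.0501 to 0.0945). Malat1, the most widely known nuclear RNA of this kind, overlapped between the groups (adjusted p = 0.440), and its highest value, 146, was in WT replicate 1.

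No gene of glycolysis, the proteasome, perineuronal nets or the unfolded protein response was called on fructose. Of 27 genes of the unfolded protein response and heat shock 20 lay above 0, and of 29 antioxidant genes 24, with medians of 0.10 and 0.13. Of 13 glucocorticoid response genes 9 lay below 0, with a median of -0.24. These lists had 0 calls, and a term for replicate 1 gave 4 higher calls in the first list and 5 higher with 2 lower in the second. It gave 2 lower calls in the glucocorticoid list, where replicates 2 to 4 gave 4 lower, and 3 higher with 2 lower in glycolysis. Without BgnKO replicate 1 the glucocorticoid and antioxidant lists held 2 calls each and glycolysis and perineuronal nets 1 each. The antioxidant list also held 2 without BgnKO replicate 2 and 1 without WT replicate 1, and the glucocorticoid list 1 without WT replicate 1.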
